A study of Mus musculus with 2 samples.

Results

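The regions described here are the H3K9me3 regions that lay wholly inside introns, mapped in E14TG2a.4, a mouse embryonic stem cell line. H3K9me3 is trimethylation of lysine 9 of histone H3, and it was mapped by chromatin immunoprecipitation and sequencing (ChIP-seq). A region was a member when it lay inside the body of a protein-coding gene in GENCODE M1 on mm9, touched no protein-coding exon, and stayed out of the 1 kb on either side of every protein-coding transcription start site (TSS). Of the 56116 regions in the third deposited mm9 list, 9656 met this rule, which is 17.2%. They covered 36.7 Mb. The other regions were 42164 that overlapped no protein-coding gene body, called outside gene bodies below, 2400 on exons and 1896 at promoters.

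The line is male, was derived from an embryo of strain 129/Ola, and is 1 line only, so no second genotype was measured. The labels name no treatment and give 2 biological replicates from separate biosamples, which form 1 group. No second group and no control library are in the series, so each value below is a description and no test between conditions was possible. The files hold region lists, not reads, so the depth of either replicate is unknown. No RNA was measured, and the identity of the cells was not checked against marker genes.

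H3K9me3 is written by SETDB1, SUV39H1 and SUV39H2 and is read by HP1 proteins, and it marks silent chromatin. In embryonic stem cells SETDB1 is brought by the corepressor TRIM28 and by KRAB zinc finger proteins to retrotransposons such as the intracisternal A-particle (IAP). IAPs are endogenous retroviruses with a long terminal repeat (LTR) at each end and, just inside the 5′ LTR, a primer-binding site that pairs with a tRNA. LINE-1 elements are retrotransposons without LTRs, with reading frames named ORF1 and ORF2. Introns hold many copies of both kinds.

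The short sequences found in the largest numbers of members came mostly from these elements, and they are shown first because the results turn on them. Every 24-base word in the members was counted on both strands. The word in most members was taken first, then the word in most of the remaining members, up to 8 words. The files hold no repeat annotation, so the names LINE-1, IAP and B1 come from background knowledge of these sequences. Word 1, from LINE-1 ORF1, was in 2329 members (24.1%), and word 3, from the IAP LTR, in 480 (4.97%). Word 5, which is left unnamed, was in 258. Adjoining words found in at least 100 members, with at least 99% of their intron copies inside regions, joined into 46 stretches of 24 bases or more. Of these, the one that held the word in the most members lay at the start of LINE-1 ORF1. Another held the IAP primer-binding site. The shared sequences read as follows, each turned to the strand of its element where that could be found.
Word 1, LINE-1: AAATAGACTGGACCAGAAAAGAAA
Word 3, IAP LTR: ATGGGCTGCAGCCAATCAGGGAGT
Word 5, unnamed: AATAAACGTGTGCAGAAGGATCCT
LINE-1 ORF1-start stretch: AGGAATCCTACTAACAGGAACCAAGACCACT
IAP primer-binding-site stretch: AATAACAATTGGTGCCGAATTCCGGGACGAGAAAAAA

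The primer-binding-site stretch is shown in its surroundings in 4 of the members with the highest mean fold of the replicates among those that held it. Capitals mark the stretch. All windows are from the mm9 reference, written in the direction of the element.
Dlg2, chr7:98431961-98432077, minus strand: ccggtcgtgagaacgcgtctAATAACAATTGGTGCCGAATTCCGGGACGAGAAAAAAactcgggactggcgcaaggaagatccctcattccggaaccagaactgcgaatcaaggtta
D630013G24Rik, chr3:132786951-132787067, plus strand: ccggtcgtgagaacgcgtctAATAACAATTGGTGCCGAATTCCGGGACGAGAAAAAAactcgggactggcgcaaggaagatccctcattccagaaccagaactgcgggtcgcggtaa
Trak2, chr1:58987907-58988023, plus strand: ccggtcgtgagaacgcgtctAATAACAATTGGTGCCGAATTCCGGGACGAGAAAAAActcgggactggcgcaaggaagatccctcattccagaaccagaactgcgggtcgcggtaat
2010111I01Rik, chr13:63264656-63264772, minus strand: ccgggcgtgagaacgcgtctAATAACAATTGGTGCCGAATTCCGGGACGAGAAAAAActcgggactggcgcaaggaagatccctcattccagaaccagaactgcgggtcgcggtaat
Counted as the least number of single-base substitutions, insertions and deletions, the D630013G24Rik window differed from the Dlg2 window by 6, the Trak2 window by 8 and the 2010111I01Rik window by 9. The 117 bases held 11 CpG dinucleotides in Dlg2 and 12 in each of the others. In all 4 the element ran against the direction of the host gene.

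The start of LINE-1 ORF1 is shown for 3 of the strongest members that held that stretch, again with the stretch in capitals.
Gm11161, chr1:27197561-27197671, plus strand: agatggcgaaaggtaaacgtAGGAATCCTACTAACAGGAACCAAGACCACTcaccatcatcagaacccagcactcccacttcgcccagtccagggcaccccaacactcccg
Fut8, chr12:78489954-78490064, minus strand: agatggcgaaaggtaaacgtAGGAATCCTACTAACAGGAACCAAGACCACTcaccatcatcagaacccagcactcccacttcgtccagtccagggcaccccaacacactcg
Exoc6b, chr6:84715536-84715646, plus strand: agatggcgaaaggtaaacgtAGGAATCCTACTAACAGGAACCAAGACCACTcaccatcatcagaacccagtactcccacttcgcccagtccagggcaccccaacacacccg
The Fut8 window differed from the Gm11161 window by 3 single-base changes and the Exoc6b window by 2. Each held 4 CpGs in 111 bases.

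The deposited fold enrichment, a linear ratio, was modest in most members. The sources used here do not say what it is relative to. Its median was 2.76 in members and 2.88 in regions outside gene bodies. From the 5th to the 95th percentile members ran from 1.75 to 6.46, and the highest value was 25.8. A fold of at least 4 was reached by 1738 members, which is 18.0%, beside 21.8% of all regions in the list. Members were also narrower, with a median width of 3000 bp against 3800 bp outside gene bodies. The middle of the range, from the first to the third quartile, was 1800 to 5000 bp, and the widest member spanned 35.2 kb. A region must fit between exons to be a member, which limits its width.

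Both replicates called a region at 6393 members, which is 66.2%, beside 72.4% of all regions and 73.9% of those outside gene bodies. A member counted as called when any part of it was overlapped by a region of the replicate's list. With at least 50% of the member covered by each replicate, the share was 62.7%. Replicate 2 called far more of the members than replicate 1, 89.6% against 67.8%. Only 152 members were called in replicate 1 alone, 2261 in replicate 2 alone and 850 in neither list. The longer list was also that of replicate 2, with 53405 regions over 256.1 Mb, against 43006 over 222.0 Mb in replicate 1. Within the 6393 members called in both, replicate 2 gave the higher fold in 85.7%, with a median of 3.41 against 2.77 in replicate 1. The folds ranked alike, with Spearman's rho of 0.824 and Pearson's r of 0.926 across these members, which share 2 libraries and are not independent replicates.

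**Figure D1:**
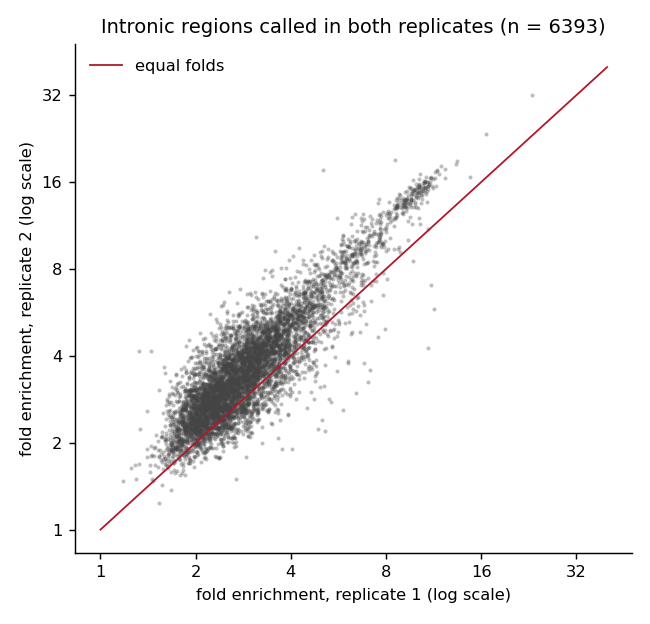
Fold enrichment of each intronic region called in both replicates, replicate 1 on the x axis and replicate 2 on the y axis, both on log scales, with 1 point per region (n = 6393) and a line at equal folds. Most points lie above the line, since replicate 2 had the higher fold in 85.7% of regions.

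Agreement between replicates went with strength and with width. Since any overlap counted as a call, a wide member could meet the rule more easily than a narrow one. With members ranked by fold into 4 equal groups of 2414, both replicates called 47.1%, 63.8%, 72.3% and 81.7% of them, from the lowest group to the highest. Of the 274 members of at most 600 bp, 61.3% had a fold of at least 4 but only 17.9% were called in both replicates. Of the 206 members wider than 12 kb, 69.4% had a fold of at least 4 and 100% were called in both. The members between 4 and 6 kb were among the weakest, with a median of 2.46, yet 90.8% of them were called in both.

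Most of the 100 members with the highest mean fold of the replicates held IAP sequence. The 284 members that held the IAP LTR word at least 2 times, or the primer-binding-site stretch, had a median fold of 9.47, and 283 of them reached 4. All 284 were called in both replicates, with a median of 8.08 in replicate 1 and 12.1 in replicate 2. The 209 members with 1 copy of the LTR word and no primer-binding-site stretch had a median fold of 4.64 and a median width of 2200 bp. The 3040 members with LINE-1 words only had a median fold of 2.49 and a median width of 4800 bp, and 86.8% were called in both replicates. LINE-1 words here are words 1, 2 and 4 and the ORF1-start stretch, without word 8, which is also from LINE-1. The remaining 6123 members, 63.4% of all, held none of words 1 to 4 and neither named stretch, though some held word 5, 6, 7 or 8. They had a median fold of 2.83 and a median width of 2200 bp. Of these, 53.7% were called in both replicates and 1100 reached a fold of 4. Over all members, 5398 held none of the 8 words.

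**Figure D2:**
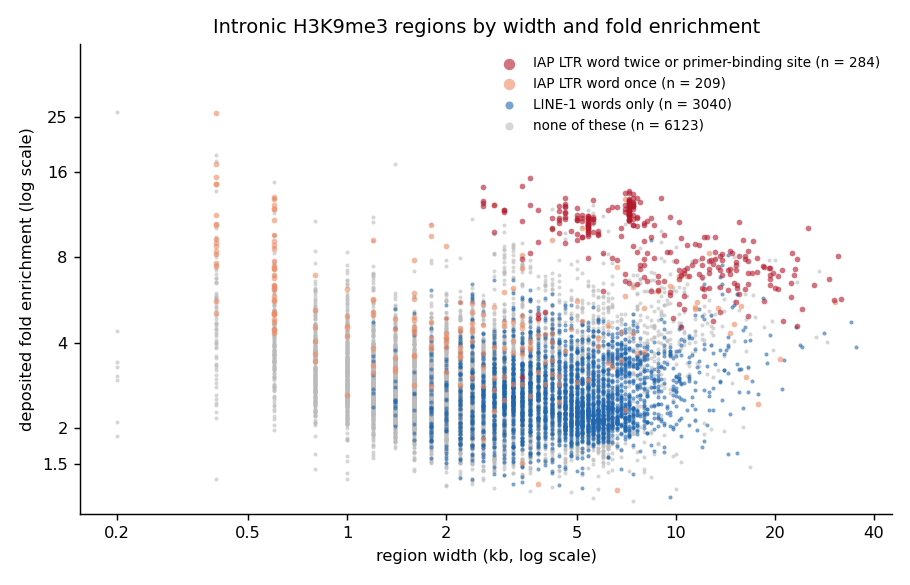
Width in kb (x axis) and deposited fold enrichment (y axis) of the 9656 intronic regions on log scales, 1 point per region, coloured by the shared sequences they hold. Regions with the IAP LTR word at least 2 times or the primer-binding-site stretch (red) have a median fold of 9.47 and a highest fold of 15.1. Single regions with the LTR word 1 time (orange, median 4.64) or with none of these sequences (grey) reach 25.7 and 25.8. Regions with LINE-1 words (blue) gather near 5 kb with a median of 2.49. LINE-1 words are words 1, 2 and 4 and the ORF1-start stretch, without word 8.

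IAP sequence was commonest at the top of the ranking by the replicates' mean fold. Only the 6393 members called in both replicates have such a mean, so strong members not called in both are left out. Of the 10 members with the highest mean fold, 6 held the LTR word at least 2 times or the primer-binding-site stretch, and 2 held 1 copy of the word. Of the top 100, 81 were of the first kind and 10 of the second. Of the top 1000, 282 were of the first kind and 98 of the second. Members with LINE-1 words only made up 0 of the top 100 and 96 of the top 1000. Those with none of these sequences made up 9 of the top 100 but 524 of the top 1000. The sources used here do not say how reads that map to several places were handled, and the part of that in these folds was not tested.

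The single strongest member lay in intron 2 of Acss2, which encodes an acetyl-CoA synthetase, at chr2:155364201-155364600. It was only 400 bp wide, and its fold was 23.1 in replicate 1 and 31.9 in replicate 2, a mean of 27.5 ± 6.24 (SD, n = 2). It held 1 copy of the LTR word and no primer-binding-site stretch. The next was a 400 bp member in intron 8 of 1110038D17Rik, at 20.0 ± 4.88, which held neither. The member in intron 3 of Stard9, which encodes a kinesin-like protein, was 3.6 kb wide, held 2 copies of the LTR word and had 16.2 ± 3.94. In every one of the 10 strongest members replicate 2 was the higher, as it was in most members.

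Among the other strong members, 3 had nearly the same width and nearly the same fold. They lay in Pira5, a paired immunoglobulin-like receptor gene, in Cntnap3, a contactin-associated protein gene, and in D630013G24Rik. Their widths were 7.2 kb, 7.4 kb and 7.2 kb, and their mean folds 14.6 ± 4.29, 14.5 ± 4.21 and 14.4 ± 3.73 (SD, n = 2). Each held 2 copies of the LTR word. The rest of the 10 were in Gm20388 at 15.8 ± 3.65, in Gm1604A at 15.7 ± 1.34, in Dlg2, which encodes a synaptic scaffold, at 15.0 ± 3.87, and in 2310046A06Rik at 15.0 ± 4.40. The highest fold of any member in the third list, 25.8, belonged to a region of 200 bp in Odz1 that was not called in both replicates.

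Some very short strong members held 1 copy of the LTR word. It is shown in capitals in 3 of the strongest members of at most 600 bp that held it 1 time, with 100 bases on either side.
Acss2, chr2:155364226-155364449, plus strand: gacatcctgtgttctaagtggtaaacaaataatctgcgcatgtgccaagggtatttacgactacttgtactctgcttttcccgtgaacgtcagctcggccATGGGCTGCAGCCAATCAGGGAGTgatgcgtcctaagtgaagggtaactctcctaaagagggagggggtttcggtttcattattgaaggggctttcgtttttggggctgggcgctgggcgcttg
Gm1604A, chr17:8252656-8252879, plus strand: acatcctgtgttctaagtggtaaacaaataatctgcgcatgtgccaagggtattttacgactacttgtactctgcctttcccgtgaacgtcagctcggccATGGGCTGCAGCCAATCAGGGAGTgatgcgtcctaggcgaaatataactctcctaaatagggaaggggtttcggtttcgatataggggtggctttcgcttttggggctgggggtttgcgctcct
1700007B14Rik, chr8:78267075-78267298, plus strand: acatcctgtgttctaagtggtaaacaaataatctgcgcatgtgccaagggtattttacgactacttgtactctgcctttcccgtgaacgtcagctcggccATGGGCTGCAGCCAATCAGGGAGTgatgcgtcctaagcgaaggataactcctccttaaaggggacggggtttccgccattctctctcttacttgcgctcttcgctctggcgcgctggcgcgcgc
The Acss2 member was far stronger than the others shown. The Gm1604A member had a mean fold of 15.7 ± 1.34 and the member in 1700007B14Rik, at chr8:78267001-78267600, had 13.6 ± 4.85 (SD, n = 2). Their windows differed from the Acss2 window by 24 and by 33 single-base changes. The 224 bases held 10, 11 and 16 CpGs in Acss2, Gm1604A and 1700007B14Rik.

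Many of the members with at least 2 copies of the LTR word, or with the primer-binding-site stretch, shared a few widths. Of the 284, 66 were between 6.8 and 7.8 kb wide and had a median fold of 11.7, and 43 were between 4.8 and 5.8 kb and had 10.5. The commonest single widths were 7200 bp, with 35 members, and 5400 bp, with 21. The 129 members wider than 7.8 kb had a lower median fold of 7.22. Region boundaries were multiples of 200 bp, so widths come in those steps.

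Members extended from the primer-binding site mainly downstream. In the 117 members with 1 copy of the stretch, the region began a median of 542 bp upstream of it, with quartiles of 418 and 3794 bp, and ended a median of 6745 bp downstream, with quartiles of 4945 and 7424 bp. The region ended between 4 and 6 kb downstream in 38 of the 117, between 6 and 8 kb in 44 and beyond 8 kb in 26. Around the LINE-1 ORF1-start stretch, 194 members extended a median of 778 bp upstream and 4323 bp downstream.

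**Figure D3:**
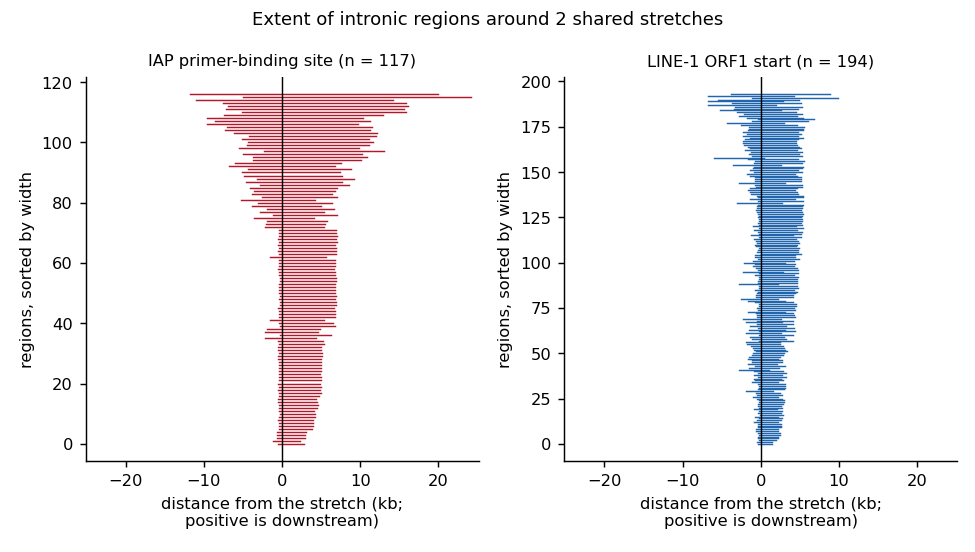
Extent of each intronic region around the IAP primer-binding-site stretch (left, n = 117) and around the LINE-1 ORF1-start stretch (right, n = 194). Each line is 1 region with 1 copy, the x axis gives the distance from the stretch in kb in the direction of the element, and regions are sorted by width. Most IAP regions begin close upstream, at a median of 542 bp, and many end near 5 or 7 kb downstream.

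Nearly every intron copy of the IAP sequences and of the ORF1-start stretch was marked in the third list. Of 169 exact copies of the primer-binding-site stretch in introns, 168 lay in a region (99.4%), and the same 99.4% lay in regions of each replicate. Since the stretches were chosen for their share of marked intron copies, that share is no finding. Copies outside gene bodies took no part in the choice, and of these 637 of 665 (95.8%) were marked. For the ORF1-start stretch the shares were 209 of 211 in introns (99.1%) and 891 of 911 outside gene bodies (97.8%). In the replicates' own lists its intron copies were marked in 83.4% of cases in replicate 1 and 98.1% in replicate 2. For the LTR word they were 1082 of 1103 in introns (98.1%) and 4733 of 4935 outside gene bodies (95.9%). This word, like the other words, was chosen for the number of members that held it. That choice can also raise the marked share of intron copies. An exact copy was counted as marked when all its bases lay in 1 region of the list.

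The few unmarked intron copies of these 3 sequences each lay at least 6965 bp from any region. The unmarked primer-binding-site copy was in Dph5, a diphthamide synthesis gene, at chr3:115612428-115612464, 30627 bp from the nearest region. The 2 unmarked ORF1-start copies were in C130026I21Rik and in Nlrp4c. The 21 unmarked LTR words were in 15 genes, among them C130026I21Rik and Map3k4, a stress-kinase pathway gene, with 2 each. The Map3k4 copies lay 28301 and 32314 bp from the nearest region, and the C130026I21Rik copies 292043 and 296373 bp. Neither replicate marked any of these copies. The reference sequence is of another mouse strain than the line, and whether the copies are present in the line was not tested.

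Along LINE-1 the marked share was lower for words nearer to the end of the element, with word 2 as an exception. Word 1 lay most often 694 bp after the ORF1-start stretch, word 4 most often 1981 bp after it and word 8 most often 4721 bp after it. Their intron copies were marked in 89.5%, 83.0% and 15.2% of cases. Few copies of these words lay within 8 kb of an exact ORF1-start stretch. The distances were thus those of 447 of 16212 copies of word 1, 257 of 15543 of word 4 and 170 of 33037 of word 8. Word 2 lay most often 82 bp before word 1, in 2602 of its 7521 copies, and its intron copies were marked in 73.5%. Outside gene bodies the order was the same, with 91.9% for word 1, 84.7% for word 4, 20.8% for word 8 and 78.4% for word 2. Many copies of the later words belong to LINE-1 copies that lack the front part, so these shares were also taken with word 1 present or absent. Where word 1 lay within 6 kb upstream on the same strand, 1858 of 1992 intron copies of word 4 were marked (93.3%), against 472 of 816 where it did not (57.8%). For word 8 the shares were 659 of 1968 (33.5%) with word 1 upstream and 368 of 4795 (7.67%) without it. Each replicate alone gave the same order for word 8, with 16.5% against 4.53% in replicate 1 and 22.0% against 6.32% in replicate 2.

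Not every common repeat was marked. Word 6, from the B1 family of short interspersed elements, was in 291 members, yet only 529 of its 24111 intron copies lay in regions (2.19%). Outside gene bodies 1682 of 27962 did (6.02%). Word 5 was marked in 400 of 519 intron copies (77.1%), and its 258 holders had a median fold of 4.21. Word 7 was marked in 176 of 197 intron copies (89.3%), though in 56.9% in replicate 1 and 75.6% in replicate 2, and its 166 holders had a median fold of 1.77.

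**Figure D4:**
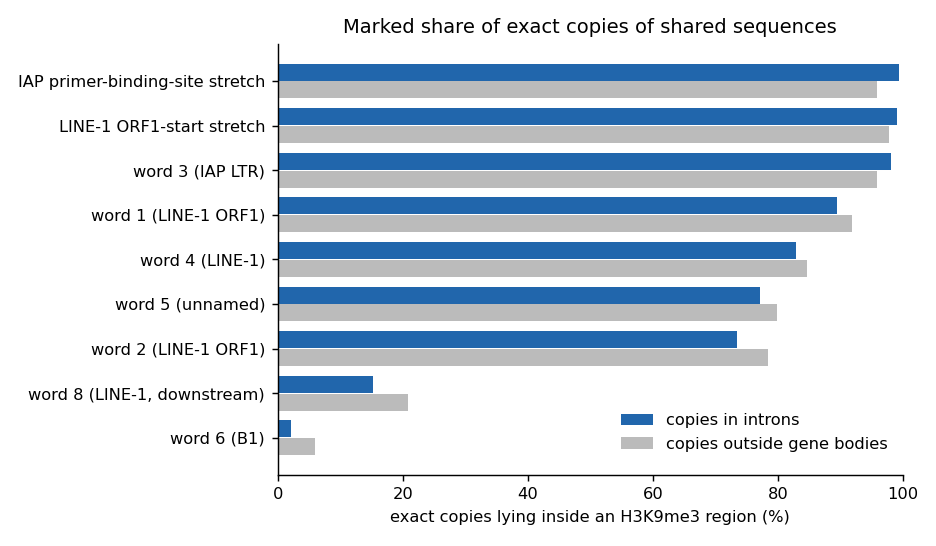
Share of exact copies of shared sequences that lay inside an H3K9me3 region, in introns (blue) and outside protein-coding gene bodies (grey), in percent on an axis from 0 to 100. IAP sequences and the front of LINE-1 are marked in most copies at both places, and the B1 word in 2.19% of intron copies. Both stretches were chosen for having at least 99% of intron copies marked. The words were chosen for the number of members that held them, which can also raise their intron share. Copies outside gene bodies took no part in either choice, and there the primer-binding-site stretch is marked in 95.8% of copies.

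Marked copies of the IAP and LINE-1 sequences ran against the host gene more often than with it. Of 760 copies of the LTR word in members, 565 lay on the strand opposite to the gene (74.3%). Of 119 copies of the primer-binding-site stretch, 78 did (65.5%), and of 194 copies of the ORF1-start stretch 113 did (58.2%). Word 1 of LINE-1 lay opposite in 1522 of 2372 copies in all members (64.2%) and in 104 of 170 copies in members with a fold of at least 4 (61.2%). Unmarked intron copies of word 1 leaned the same way, in 221 of 304 (72.7%). For the LTR word only 21 unmarked copies existed, of which 13 lay opposite. The B1 word was not turned to the strand of its element, so its counts do not give the direction of B1 elements. As counted, the word lay opposite in 128 of 309 copies in members (41.4%) and in 10319 of 23582 unmarked intron copies (43.8%).

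High-copy sequence filled more of the members than of the unmarked introns around them. A base was counted as high-copy when it began a 16-base word found at least 50 times in mm9 on either strand. The share was 52.3% in members and 51.8% in regions outside gene bodies, against 12.5% in unmarked intron sequence and 17.4% in unmarked sequence outside gene bodies. With a minimum of 10 copies the members' share was 63.7%. CpG dinucleotides numbered 10.3 per kb in members and 9.67 in regions outside gene bodies, against 8.25 in unmarked introns. In members with a fold of at least 4 they numbered 14.03 per kb. The GC content was 42.6% in members and 42.3% in unmarked introns.

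Many members held little high-copy sequence by this measure, which leaves out repeats of fewer than 50 copies. Those under 10% high-copy numbered 2295 (23.8%), with a median fold of 2.73, close to that of all members. Both replicates called 49.5% of them, against 80.7% of the 4111 members that were at least 50% high-copy, which were also wider, with a median of 4600 bp against 2000 bp. Among the strongest low-copy members, looked up after their values were seen, were a 1.8 kb region in Akap4, a sperm-tail scaffold gene, with a mean fold of 10.6 ± 1.69, a 10.0 kb region in Gm20388 with 8.87 ± 1.73, a 13.2 kb region in Trappc9 with 8.09 ± 2.88 and a 3.0 kb region in Fam189a1 with 7.60 ± 1.91 (SD, n = 2).

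The Trappc9 region, at chr15:72633801-72647000 in intron 20 of 26, was dense in CpGs, as was the low-copy Gm20388 region. Trappc9 encodes a subunit of a vesicle-tethering complex. In the RefSeq table of GRCm38.p6 its body also holds Peg13, a noncoding RNA gene that is known to be imprinted in mouse, but GENCODE M1 on mm9 does not list Peg13, so its place against the region was not looked up. The region was 2.99% high-copy and held 222 CpGs, or 16.8 per kb. The low-copy Gm20388 region held 15.7 per kb, that of Fam189a1 10 and that of Akap4 5. The fold of the Trappc9 region was 6.05 in replicate 1 and 10.1 in replicate 2. The 200 bases of the Trappc9 region with the most CpGs are shown, with each CpG in capitals.
Trappc9, chr15:72640354-72640553, plus strand: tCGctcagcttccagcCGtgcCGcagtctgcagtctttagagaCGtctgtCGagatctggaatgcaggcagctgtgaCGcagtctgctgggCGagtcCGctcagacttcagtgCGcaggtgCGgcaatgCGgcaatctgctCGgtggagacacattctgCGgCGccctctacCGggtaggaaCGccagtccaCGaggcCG
These bases held 18 CpGs. The densest 200 bases of the low-copy Gm20388 region held 11, those of the Fam189a1 region 6, and those of the Akap4 region, at 60.3% GC, only 4.

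Intron sequence close to start sites and exons was covered less than intron sequence further away. Counting every region of the list and not only members, the share of intron sequence in regions was 3.34% at 1 to 5 kb from the nearest protein-coding TSS, 5.38% at 5 to 20 kb, 6.21% at 20 to 50 kb, 6.46% at 50 to 100 kb and 6.41% beyond 100 kb. By distance to the nearest exon it was 2.87% within 1 kb, 4.95% at 1 to 5 kb, 7.67% at 5 to 20 kb, 7.07% at 20 to 50 kb and 6.29% beyond 50 kb. Members alone covered 4.19% of intron sequence. Their median distance was 7899 bp to the nearest exon and 34615 bp to the nearest TSS. The median member sat in an intron of 43676 bp, at 47.0% of the way along its host gene.

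**Figure D5:**
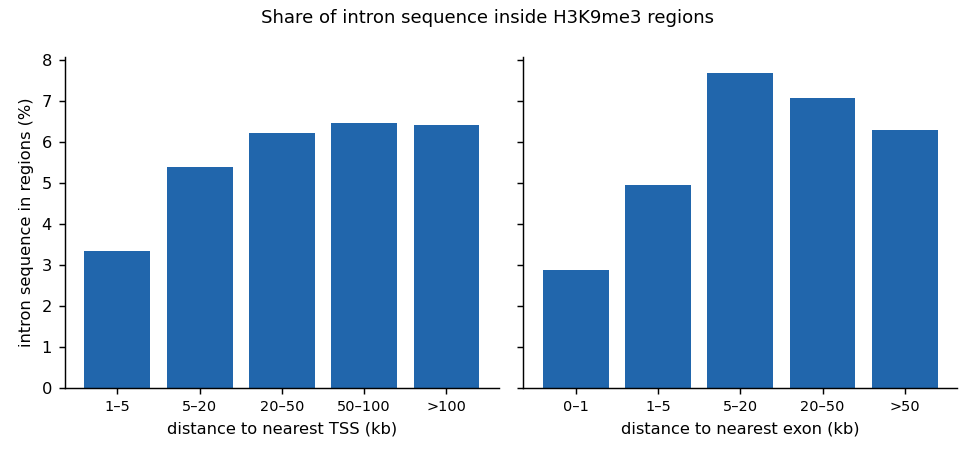
Share of intron sequence inside any H3K9me3 region of the list, in percent, by distance in kb to the nearest protein-coding TSS (left) and exon (right). Bars start at 0. The share is 3.34% at 1 to 5 kb from a TSS and 6.46% at 50 to 100 kb, and 2.87% within 1 kb of an exon and 7.67% at 5 to 20 kb.

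Members were about as dense in first, middle and last introns. First introns held 11.9 members per Mb, middle introns 10.6, last introns 11.5 and the introns of genes with a single intron 12.0. The share of sequence in any region was 5.63% in first introns, 5.39% in middle introns and 7.42% in last introns. By length, introns under 5 kb were covered in 2.55%, those of 5 to 20 kb in 5.68% and those of at least 100 kb in 6.65%. Across chromosomes members ranged from 8.79 per Mb of intron on chromosome 11 to 13.2 on chromosome 14, leaving aside chromosome Y, whose introns make up 0.55 Mb. On chromosome X the median fold was 3.23.

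The 1 kb window around start sites decided few memberships. It alone left out 198 regions, with a median fold of 3.00. Just inside the limit were members at 1008 bp in Ppip5k1, 1011 bp in Homer2 and 1015 bp in Rit2, with folds of 2.49, 1.82 and 2.37. Just outside it were regions at 1000 bp in Acpl2 and in Snx29 and at 994 bp in Plcb4, with folds of 4.00, 4.35 and 3.37. Of the members, 186 (1.93%) came within 1 kb of a start of a gene that is not protein-coding.

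The members had 3652 host genes, 19.7% of the 18512 protein-coding genes with intron sequence beyond the start-site windows. Long genes were hosts far more often than short ones. Of genes with under 10 kb of intron 0.976% were hosts, of those with 10 to 50 kb 14.3%, with 50 to 200 kb 52.4%, and with at least 200 kb 94.4%. The median host had 91.1 kb of intron and the median other gene 10.6 kb. Most hosts, 1954 of 3652, had 1 member, while 150 hosts with at least 10 members held 2289 of them. The longest genes with no member were Eif4e3, with 400.7 kb of intron, Gm10406, Pcsk5, Myt1l and Tmtc2.

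The hosts with the most members were mainly very long genes. Cdh13, which encodes a cadherin without a cytoplasmic tail, had 43 members over 1024 kb of intron, 15.4% of which they covered. Sntg1, a syntrophin gene, had 39 over 923 kb and was covered in 19.9%. Both had about 42 members per Mb (42.0 in Cdh13 and 42.2 in Sntg1), against 10.8 per Mb over all genes with introns. Fhit, which spans a fragile site, had 35 members, or 21.8 per Mb. Cntnap2, a neurexin-family gene, had 32, Pcdh15, of the hair-cell tip link, 30, Dmd, the dystrophin gene, 26, and Magi2, a synaptic scaffold gene, 26, all between 11.7 and 19.8 members per Mb. Agbl4, which encodes a carboxypeptidase, had 25, or 20.0 per Mb. In each of these hosts the members' median fold lay between 2.57 and 3.08, near that of all members.

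Some entries on that list owe their place to the annotation. Gm20388 had 35 members over a body of 4435 kb in GENCODE M1 that holds 72 other protein-coding genes whole, and Fgfr2, a growth factor receptor gene, had 33 over a body of 3009 kb that holds 31. Members in such a body may lie between the genes inside it. A member in several bodies, as 119 were, was assigned to the shortest. Leaving out every body that holds 3 or more other protein-coding genes, an alternative added after the hosts were seen, left 9496 members.

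By share of intron covered, the leading hosts with at least 20 kb of intron were shorter genes, several of them from gene families. BC035044 was covered in 66.2% by 2 members, the zinc finger gene Zfp81 in 65.2% by 1, the sulfotransferase gene Sult2a2 in 64.6% by 3, the major urinary protein gene Mup6 in 62.1% by 4 and the organic anion transporter gene Slc22a28 in 60.9% by 4. Their members were of ordinary strength, with a highest fold of 4.33 in Slc22a28 and 2.89 in Sult2a2. The widest members were in Mup15 at 35.2 kb, Lcorl at 34.2 kb, Vmn2r60, a vomeronasal receptor gene, at 31.8 kb, Xkr6 at 31.2 kb and Cmc1 at 30.4 kb. The Xkr6 member was also strong, with a fold of 6.58 in replicate 1 and 9.86 in replicate 2.

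The deposited mm10 lists, made as narrow peaks, hold the same libraries called in another way. Of the 3610 hosts matched by name to RefSeq genes on GRCm38.p6, 84.9% had at least 1 replicated mm10 peak in the body, against 22.7% of the 14530 other genes. Hosts are longer, so this share is not like for like. Cdh13 held 163 such peaks and Sntg1 99. Mup6, though covered in 62.1% by mm9 members, held 0.

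The gene lists, which were chosen with earlier results of these data known, differed in how many genes were hosts and also in intron length. All 30 genes of neural adhesion and the synapse were hosts, with a median of 1121 kb of intron. They held 433 members, or 11.8 per Mb, beside 10.8 per Mb over all genes with introns. Of the genes with a Zfp number symbol, 53 of 347 were hosts (15.3%), with 10.4 members per Mb. None of the 17 housekeeping genes with introns was a host, over 0.172 Mb of intron in all. The members of these and the following lists are counted beside the 19.7% of all genes that were hosts.

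Zinc finger hosts included a few strong members. Zfp69 had 1 of fold 9.97 in replicate 1 and 15.0 in replicate 2, a mean of 12.5 ± 3.55 (SD, n = 2), which covered 54.8% of its intron sequence. Zfp933 had 1 of 12.2 ± 3.19 and Zfp106 1 of 8.38 ± 1.83. The bodies of Zfp69, Zfp933 and Zfp106 each held 0 replicated mm10 peaks. In the neural list the strongest members were in Dlg2, given above, in Magi2 at 13.4 ± 3.75, and in Lrp1b, a receptor gene, where the region with the highest fold of the third list, 13.7, was called only in replicate 2, at 17.6.

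Germ cell and meiosis genes were hosts in 8 of 27 cases (29.6%), with 17.3 members per Mb and 8.06% of intron covered, against 4.17% over all genes. They had a median of 36.2 kb of intron, against 15.8 kb over all genes, and longer genes were hosts more often. Mei4, needed for meiotic recombination, had 6 members, of which an 18.4 kb region at chr9:81794001-81812400 reached 6.69 in replicate 1 and 9.27 in replicate 2, a mean of 7.98 ± 1.82 (SD, n = 2). Mov10l1, a helicase of the piRNA pathway, had an 11.8 kb member of 7.18 ± 1.31. Tdrd9, another piRNA pathway helicase gene, had 3, the strongest at 4.62 ± 0.283, and Sycp1, of the synaptonemal complex, had 6, of which the strongest by mean fold had 3.71 ± 1.71. With 27 genes and 23 members, of which Mei4 and Sycp1 held 12, these shares rest on few genes.

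Imprinted genes were hosts in 8 of 23 cases (34.8%), with 15.2 members per Mb. They had a median of 52.4 kb of intron, against 15.8 kb over all genes, and longer genes were hosts more often. Kcnq1, a potassium channel gene in an imprinted cluster, held 9 of the 23 members, of which 3 were called in both replicates. Its strongest, at chr7:150478401-150486400, had 3.94 in replicate 1 and 4.17 in replicate 2, a mean of 4.06 ± 0.166 (SD, n = 2). Snrpn, a small ribonucleoprotein gene, had 3, the strongest at 3.80 ± 0.386, and Gnas, which encodes a G protein subunit, had 1 at 3.46 ± 0.737. The median fold of the 23 members was 2.16, below the 2.76 of all members. By the fold of the third list 1 of them reached 4, a 0.6 kb region in Sfmbt2 with 4.17 that neither replicate called, while the strongest Kcnq1 region had 3.99.

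Few genes of the H3K9 machinery and of pluripotency hosted a member. Of 23 machinery genes 2 did (8.70%), with 2.03 members per Mb of intron and 0.264% of intron covered, against 10.8 per Mb and 4.17% over all genes. Atrx, a chromatin remodeller gene, had a 1.2 kb member of 4.81 in replicate 1 and 4.60 in replicate 2, and Dnmt3a, a DNA methyltransferase gene, a 1.4 kb member that neither replicate called on its own. Of 16 pluripotency genes Esrrb, an orphan nuclear receptor gene, was the only host, with 2 members of 2.83 ± 0.509 and 2.73 ± 0.634 (SD, n = 2). The pluripotency genes are short, with a median of 5.79 kb of intron against 15.8 kb over all genes, and their introns held 8.43 members per Mb and were covered in 4.55%. Of 15 genes of fibroblasts, which serve as feeder cells, 1 was a host, Fbn1, and of 8 genes of primitive endoderm and trophoblast 1 was, Gata4, with a member called only in replicate 2.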

How the data were processed

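H3K9me3 ChIP-seq was measured in 2 replicates of 1 line. Per the deposited file lists, the region lists on mm9 are of broadPeak type, and those on mm10 of narrowPeak type, where the replicated list draws on the pooled list and both per-replicate lists. The authors deposited a fold enrichment, a linear ratio, for each region, but the sources used here do not say against what. The authors' deposited q-value on mm9 is linear, under 0.01 in every region. All mm9 boundaries were multiples of 200 bp. The sources used here do not name the aligner or peak caller, nor say how the third mm9 list was made from the replicates. Folds are the authors' values, used only to describe and rank regions.

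Regions on chromosomes 1 to 19, X and Y were classed against GENCODE M1. A replicate's fold at a member is that of its strongest overlapping region, which may be wider or narrower than the member, so it can lie on either side of the third list's value, and mean ± SD are over the 2 replicates. Words of 24 bases in at least 40 members were counted with exact matches on both strands of mm9, which is of another strain and not repeat-masked. Promoter sequences were not used. Python 3 code with NumPy, Numba and Matplotlib was checked on simulated intervals and sequences. No test was run, since there is 1 group. Alternatives were each replicate's list, a fold of at least 4, a q-value of at most 0.001, start-site windows of 2.5 and 5 kb, all annotated genes and other copy minimums. Calls in both replicates were also counted with at least 50% of the member covered by each.

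The members, gene lists and shared sequences were chosen with earlier results of these data known. Named were the 10 strongest members by the replicates' mean, the 10 hosts with the most members, the 5 most covered hosts, the 5 widest members and up to 3 hosts per list. Other names were chosen after their values were seen. One of the strongest members under 10% high-copy is not reported here.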

Additional observations from a re-analysis of the deposited data

How the results depend on the processing

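The 10 summary values below were recomputed from each replicate's own list, at other thresholds and with other gene models. The 9656 members became 6723 to 8976 with 1 replicate's list and 1738 at a fold of at least 4, and the 3652 hosts became 1206 at that fold. The other settings left both counts within 1.5 times. Called from the list of 1 replicate, 73.0% to 97.5% of intronic regions were also called in both. With 1 replicate left out the median fold was 2.75 to 3.23, the median width 3000 to 3600 bp, the intron share covered 3.26% to 3.83%, the median distance to an exon 7998 to 8582 bp, the high-copy share 52.6% to 53.7%, CpGs 10.6 to 10.8 per kb and the share of word 1 opposite to the gene 61.7% to 64.9%. At a fold of at least 4 the median fold was 5.09, the median width 3600 bp, the intron share covered 0.989%, the distance to an exon 7455.5 bp, the high-copy share 47.3% and CpGs 14.03 per kb. The distance to an exon was 8449 and 9503 bp with start-site windows of 2.5 and 5 kb and 7115.5 bp with all annotated genes. The high-copy share was 53.1% with the 5 kb window, 63.7% with a minimum of 10 copies and 44.8% with 200. The share of word 1 opposite to the gene was 64.2% in all members and 52.9% at a fold of at least 6, where there were 17 copies. A q-value of at most 0.001 removed 7 members. The causes were not tested. No paired analysis was possible because there is 1 group. Depth is unknown, so a copy or gene without a region may hold the mark below the limit of calling.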
